A study of Homo sapiens with 8 samples.

Results

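The genes described here are the 6 chains of collagen IV (COL4A1, COL4A2, COL4A3, COL4A4, COL4A5 and COL4A6) and PXDN, 7 genes chosen by symbol from the 23391 genes counted in DU145 cells. They were picked because COL4A5 and PXDN differed in opposite directions between untreated DU145-Esrrb and DU145-pc3.1 cells, so that difference is given as a description without a test. DU145 is a line of human prostate cancer cells. DU145-Esrrb cells carry an expression vector for Esrrb, an orphan nuclear receptor, and DU145-pc3.1 cells carry the empty pcDNA3.1-zeo vector. Both were selected with Zeocin, and biological replicates of each transfection were pooled under these names. The methods do not say how the pools map to the libraries, so an effect of Esrrb cannot be told apart from another difference between the pools. Each was left untreated (vehicle) or given 3 μM DY131, a synthetic ligand of Esrrb and Esrrg. Charcoal-stripped serum was used for both. How long the treatment lasted is not given in the sources used here. Each of the 4 groups had 2 biological replicates, which gave 8 RNA-seq libraries. For DU145-Esrrb cells with DY131 the deposited headings do not tell the replicates apart, and they are called the first and the second column here.

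Collagen IV is the network-forming collagen of basement membranes. The chains of COL4A1 and COL4A2 form the trimer present in nearly all basement membranes, the chains of COL4A3, COL4A4 and COL4A5 form that of the kidney glomerulus and a few other sites, and COL4A5 also joins with COL4A6 in some epithelia. The genes lie in head-to-head pairs, each transcribed away from its partner. PXDN, peroxidasin, is a secreted heme peroxidase that links collagen IV trimers end to end through sulfilimine bonds between their NC1 domains. Before they are secreted, the chains are hydroxylated, glycosylated and folded in the endoplasmic reticulum and leave it in enlarged carriers. Outside the cell they meet laminins, nidogens, perlecan and agrin, and cells hold on to them through integrins.

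On GRCh38 (GENCODE), COL4A1 spans chr13:110148963-110307233 on the minus strand and COL4A2 chr13:110305812-110513209 on the plus strand. COL4A3 spans chr2:227164565-227314792 on the plus strand and COL4A4 chr2:227002711-227164453 on the minus strand. COL4A5 spans chrX:108439844-108697545 on the plus strand and COL4A6 chrX:108155607-108439497 on the minus strand. PXDN lies alone on chr2:1631887-1744852 on the minus strand. The RefSeq start sites leave 126 bases between COL4A1 and COL4A2, 418 between COL4A3 and COL4A4, and 379 between COL4A5 and the upstream start of COL4A6. No 50-base window of the 7 transcripts was found in another gene. COL4A2 and COL4A3 share short stretches of exon with annotated genes on the other strand (COL4A2-AS1 and COL4A2-AS2, and AC097662.1). Whether the authors' counting used strand is not given in the sources used here.

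The 250 bases before the RefSeq start sites of COL4A5 and PXDN are shown because among the 7 genes these differed most between the untreated pools. They are from RefSeq (GRCh38.p14), each on its gene's strand and outside exons annotated there, at chrX:108439588-108439837 and chr2:1744516-1744765. The GENCODE span of PXDN given above reaches chr2:1744852, so by GENCODE the PXDN stretch lies inside the gene. Capitals mark CCAAT boxes and GGGCGG GC boxes on either strand, of which adjoining GC boxes may share a run of capitals.
COL4A5: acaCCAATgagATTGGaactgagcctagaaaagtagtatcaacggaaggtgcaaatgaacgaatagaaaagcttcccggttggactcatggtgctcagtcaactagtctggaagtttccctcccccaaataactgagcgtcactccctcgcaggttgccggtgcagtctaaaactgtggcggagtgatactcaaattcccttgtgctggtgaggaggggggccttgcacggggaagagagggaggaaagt
PXDN: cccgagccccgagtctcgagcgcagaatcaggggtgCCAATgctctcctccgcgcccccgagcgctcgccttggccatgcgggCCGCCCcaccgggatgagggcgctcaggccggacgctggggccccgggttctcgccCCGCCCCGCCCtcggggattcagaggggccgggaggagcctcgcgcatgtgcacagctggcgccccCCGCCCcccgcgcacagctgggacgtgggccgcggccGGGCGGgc
The COL4A5 stretch holds 2 CCAAT boxes and 0 GC boxes, while the PXDN stretch holds 1 CCAAT box and 5 GC boxes. In the 300-base promoter windows of all 35116 RefSeq entries, 34.6% hold a CCAAT box and 45.0% a GC box. The nuclear receptor core AGGTCA and the extended site TNAAGGTCA, in which N is any base, were searched on both strands and are in 13.8% and 0.951% of these windows. Neither was found in the windows of the 7 genes, which says only that these letters are not there and nothing about binding of the receptor.

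The libraries held between 7858743 and 11551690 reads counted on genes, with both DY131-treated DU145-Esrrb libraries the smallest. ESRRB itself had 3 and 0 counts in DU145-pc3.1, 104 and 99 in DU145-Esrrb, 0 and 1 in DY131-treated DU145-pc3.1, and 105 and 143 in DY131-treated DU145-Esrrb cells, so all libraries went with their labels for the vector. These counts cannot check the labels for DY131. The replicates stood furthest apart in DU145-pc3.1 cells with DY131 (chi-square per degree of freedom of 7.49, against 1.31 to 2.70 in the other groups). In the libraries of DU145-Esrrb cells with DY131, counts went with the share of a transcript's 50-base windows that cross an exon junction. In DU145-Esrrb cells with against without DY131, the tenth of the genes with the lowest shares had a median log2 fold change of 0.27, and the tenth with the highest shares one of -0.55. The shares were 36.6% in COL4A1, 34.9% in COL4A2, 37.5% in COL4A5, 30.1% in COL4A3, 22.2% in COL4A4 and 15.9% in PXDN, against a median of 14.4% over the tested genes. Values from a fit corrected for this share are therefore given beside the calls and list counts that rest on these libraries. All 4 epithelial markers were present (summed level of 2108 to 2742 cpm), while KLK3, a marker of prostate luminal cells, had 0 counts in every library. The endothelial markers PECAM1, VWF, CDH5 and KDR summed to 0.391 to 1.29 cpm, and the 6 fibroblast markers to 3.00 to 6.07 cpm, most of it COL1A1, with DCN at 0 in every library. The 3 leukocyte markers summed to 0.298 to 1.41 cpm, with PTPRC at 0 or 1 count.

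**Figure D1:**
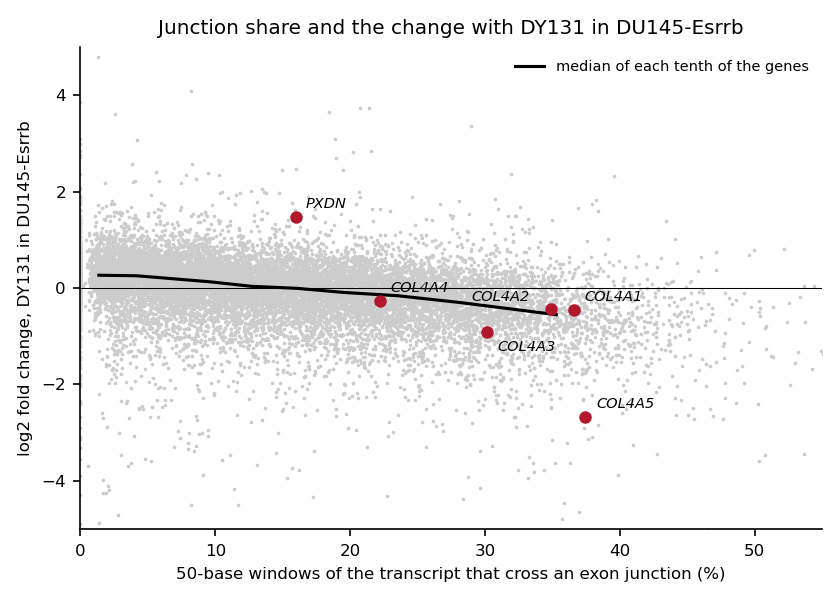
Each grey point is 1 of 13701 tested genes, of which 70 lie outside the axes, with the share of transcript windows crossing an exon junction on the x axis (%) and the log2 fold change of DY131 in DU145-Esrrb cells on the y axis. The black line joins the medians of 10 equal bins of genes, and the red points are the tested collagen IV chains and PXDN. COL4A1 and COL4A2 lie close to the line, COL4A5 lies at -2.67, far below it, and PXDN at 1.48, above it.

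Levels were taken as cpm (counts per 1000000 counted reads) after TMM normalization, and per kilobase of transcript (RPKM, reads per kilobase per 1000000 reads) where genes are compared with each other. Neither measure is corrected for the junction share. In DU145-pc3.1 cells the order per kilobase was COL4A2 (11.8 ± 0.194 RPKM, SD, n = 2), PXDN (5.57 ± 0.611), COL4A1 (4.19 ± 0.114), COL4A4 (1.27 ± 0.137), COL4A3 (0.425 ± 0.0322) and COL4A5 (0.122 ± 0.0372), with no overlap between neighbours. COL4A2 was at the top in all 4 groups. In DU145-Esrrb cells PXDN was at 0.807 ± 0.101 RPKM (SD, n = 2), where its libraries overlapped in level with those of COL4A4 (0.863 ± 0.0134) and COL4A5 (0.846 ± 0.205), so these neighbours did not differ beyond their spread. In DY131-treated DU145-pc3.1 cells the order was COL4A2 (23.6 ± 0.726), COL4A1 (9.78 ± 0.607), PXDN (3.94 ± 0.296), COL4A4 (1.01 ± 0.185), COL4A5 (0.491 ± 0.149) and COL4A3 (0.249 ± 0.00632), with no overlap between neighbours. In DY131-treated DU145-Esrrb cells PXDN was at 2.26 ± 0.277 RPKM between COL4A1 (4.01 ± 0.236) and COL4A4 (0.725 ± 0.116), and COL4A3 (0.179 ± 0.00309) and COL4A5 (0.135 ± 0.0669) overlapped.

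COL4A6 was at or below 2 counts in every library. It had 1 and 2 counts in DU145-pc3.1, 0 and 1 in DU145-Esrrb, 1 and 1 in DY131-treated DU145-pc3.1, and 0 and 0 in DY131-treated DU145-Esrrb cells. All of these are under 3 counts, the number that a count of 0 allows, which amounts to 0.260 to 0.382 cpm in these libraries for counting error alone. A difference in COL4A6 was not detectable at this depth. With at least 1 cpm required in at least 2 libraries, 6 of the 7 genes were tested among 13856, and COL4A6 was not.

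**Figure D2:**
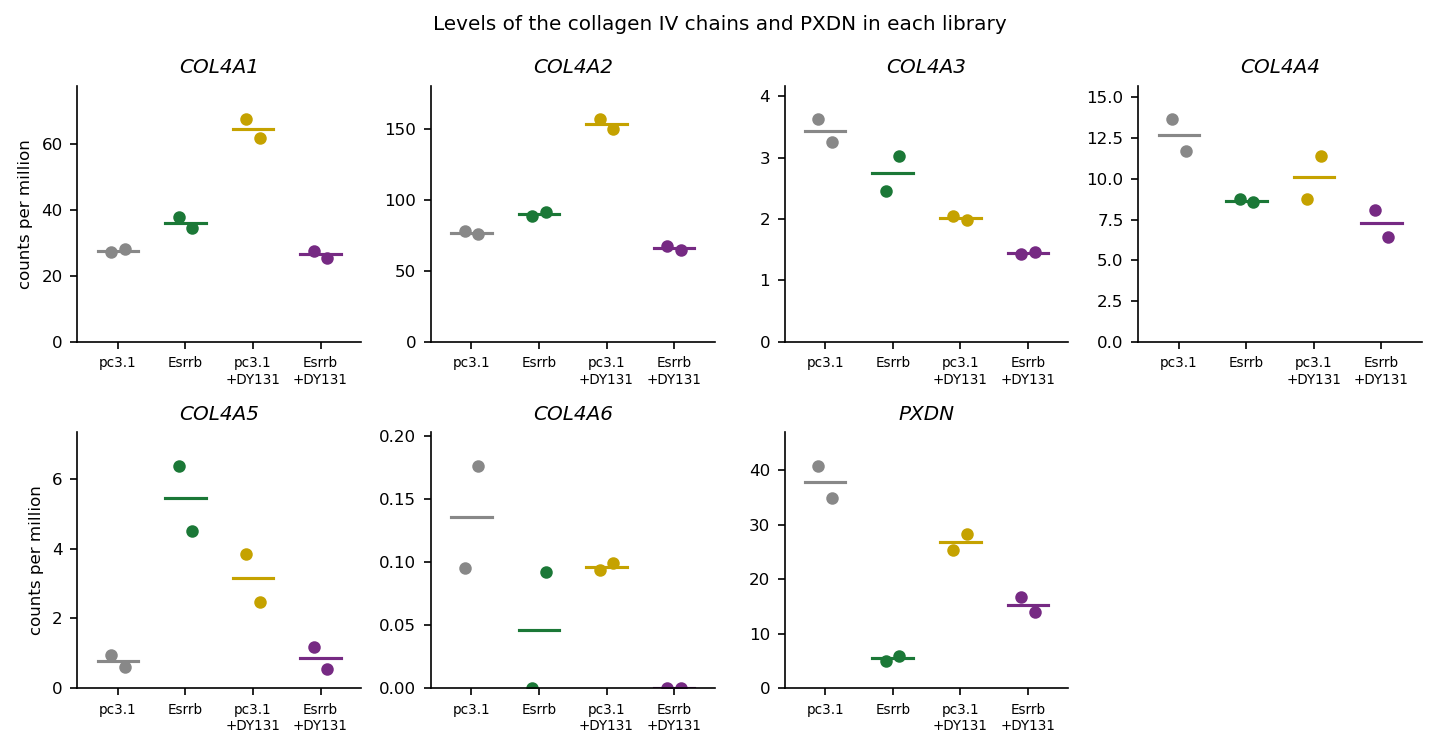
Level of each gene in cpm (y axis, from 0, scaled per panel) in the 4 groups (x axis), where points are libraries and lines are means of 2. COL4A1 and COL4A2 are highest in DY131-treated DU145-pc3.1 cells, COL4A5 is highest in untreated DU145-Esrrb cells, and PXDN is lowest there.

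COL4A5, the chain that joins with COL4A3 and COL4A4 or with COL4A6, had 10 and 7 counts in DU145-pc3.1 and 75 and 49 in DU145-Esrrb cells. That was 0.954 and 0.616 cpm in the control and 6.37 and 4.51 cpm with Esrrb. The groups were far apart, but these libraries are the ones on which the gene was chosen. The log2 fold change was 2.79 ± 0.364 (SE), and between 2.50 and 3.12 when single libraries were left out.

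PXDN had 428 and 397 counts in DU145-pc3.1 and 59 and 65 in DU145-Esrrb cells, or 40.8 and 35.0 cpm against 5.01 and 5.98 cpm. Its log2 fold change in these libraries was -2.79 ± 0.142 (SE), as far below 0 as that of COL4A5 was above it. In the control its counts were far above those of COL4A5, and its error was smaller. Without single libraries the value lay between -2.91 and -2.66.

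The other tested chains differed less between the untreated pools. COL4A1 was at 27.2 and 28.3 cpm in DU145-pc3.1 and at 37.8 and 34.6 cpm in DU145-Esrrb cells, a log2 fold change of 0.38 ± 0.0905 (SE). COL4A2 was at 77.8 and 76.0 cpm against 88.6 and 91.3 cpm, a log2 fold change of 0.23 ± 0.0635 (SE). Both members of this pair were thus a little higher with Esrrb. The other pair was lower, COL4A3 at 3.63 and 3.26 cpm against 2.46 and 3.03 cpm (log2 fold change of -0.33 ± 0.247, SE), and COL4A4 at 13.6 and 11.7 cpm against 8.74 and 8.55 cpm (-0.55 ± 0.162, SE). The libraries of the pools did not overlap for any of the 6 genes, as was the case for 51.6% of all tested genes. COL4A5 and PXDN were the 2 members with a log2 fold change of 1 or more in size, which 1.51% of the tested genes had, and nothing is read from this count because the choice of genes used it.

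Whether the pools also differed in cells treated with DY131 was tested by comparing the other 4 libraries, which were not part of the difference that chose COL4A5 and PXDN. The filter and the spread estimate of this test used all 8 libraries, including those behind the choice. Here COL4A1, COL4A2 and COL4A5 fell with Esrrb, and PXDN was lower by less than the limit of 1 on the log2 scale. Calls required an adjusted p under 0.05 (edgeR's quasi-likelihood test, Benjamini-Hochberg adjustment over all tested genes) and a log2 fold change of 1 or more in size. By this, 3 of the 6 tested members were called, all lower, where 8.21% of all tested genes were called and 6.06% were called lower. By adjusted p alone 5 of the 6 passed, against 50.4% of all tested genes.

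COL4A5 had 41 and 25 counts in DY131-treated DU145-pc3.1 and 9 and 5 in DY131-treated DU145-Esrrb cells, or 3.83 and 2.48 cpm against 1.17 and 0.565 cpm. The control libraries were the higher ones, the other way round than without DY131. The log2 fold change was -1.89 ± 0.433 (SE, edgeR adjusted p = 0.00196), and -1.34 (adjusted p = 0.0259) after correction for the junction share. The values without single libraries lay between -2.47 and -1.43, the latter, with an adjusted p of 0.0476, without the second DY131-treated DU145-Esrrb column.

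PXDN was at 25.4 and 28.3 cpm in DY131-treated DU145-pc3.1 and at 16.7 and 14.0 cpm in DY131-treated DU145-Esrrb cells. It was lower with Esrrb in both conditions, here with a log2 fold change of -0.81 ± 0.131 (SE, edgeR adjusted p = 1.14e-04) and no call because of its size. The corrected value was also -0.81 (adjusted p = 1.60e-04), as its junction share is close to the median.

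COL4A1 was at 67.6 and 61.9 cpm in DY131-treated DU145-pc3.1 and at 27.6 and 25.4 cpm in DY131-treated DU145-Esrrb cells, and COL4A2 was at 157 and 150.0 against 67.7 and 65.0 cpm. For both genes the control libraries lay far above the Esrrb libraries. The log2 fold change was -1.29 ± 0.0904 (SE, edgeR adjusted p = 2.47e-08) for COL4A1 and -1.21 ± 0.0647 (SE, edgeR adjusted p = 1.11e-09) for COL4A2. Corrected for the junction share, these became -0.76 (adjusted p = 8.20e-06) and -0.73 (adjusted p = 3.95e-07), below the fold change limit, so both calls rest on the uncorrected values.

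COL4A3 was at 2.06 and 1.98 cpm against 1.43 and 1.47 cpm (log2 fold change of -0.47 ± 0.339, SE, edgeR adjusted p = 0.274, and -0.13 with an adjusted p of 0.801 after correction). COL4A4 was at 8.79 and 11.4 cpm against 8.08 and 6.44 cpm (-0.48 ± 0.186, SE, edgeR adjusted p = 0.0420, and -0.35 with an adjusted p of 0.156 after correction). Neither was called. The libraries of the pools did not overlap for any of the 6 genes, as for 72.7% of all tested genes.

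**Figure D3:**
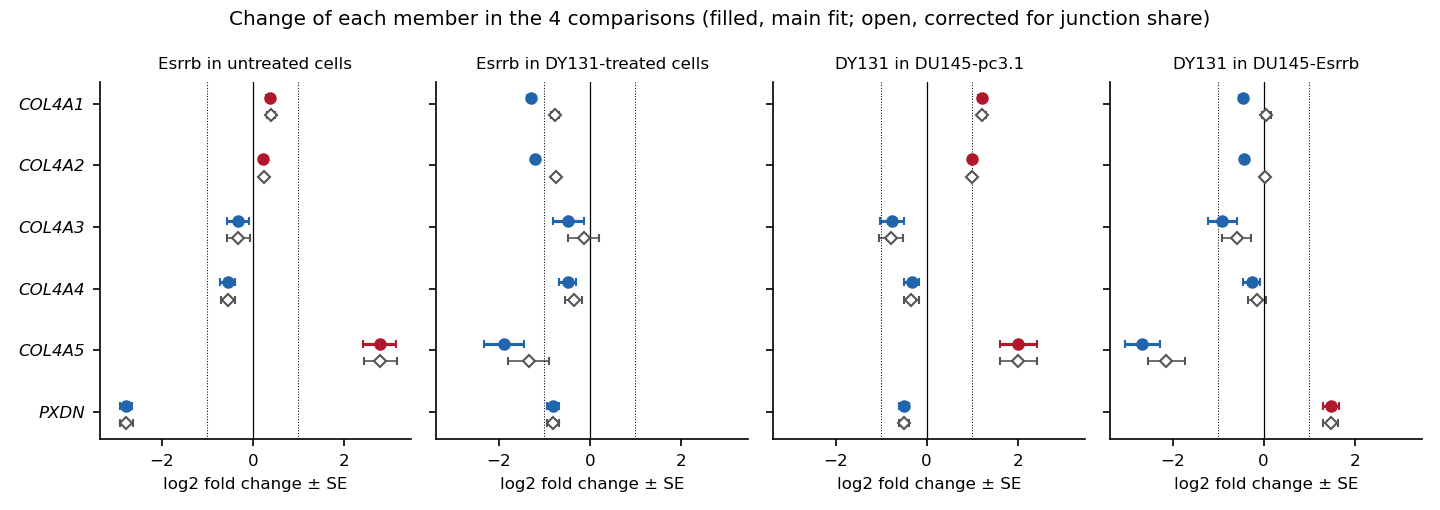
Log2 fold change (x axis) of the 6 tested genes in the 4 comparisons, as filled points with SE, and as open diamonds after correction for the junction share, with dotted lines at -1 and 1. COL4A5 is at 2.79 in untreated and at -1.89 in DY131-treated cells, PXDN is below 0 in both, and COL4A1 and COL4A2 move towards 0 with the correction where DY131-treated DU145-Esrrb libraries are involved.

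In DU145-pc3.1 cells COL4A1 rose with DY131, from 27.2 and 28.3 cpm to 67.6 and 61.9 cpm (log2 fold change of 1.22 ± 0.0859, SE, edgeR adjusted p = 1.17e-07). Its partner COL4A2 went from 77.8 and 76.0 to 157 and 150.0 cpm, which was 0.996 ± 0.0618 (SE, edgeR adjusted p = 3.17e-08) and just missed the limit of 1. Of the 4 chains tested here 1 was called, where 4.19% of all tested genes were called, with 1.02% called higher. By adjusted p alone 3 of the 4 passed, against 37.4% of all tested genes. COL4A2 passed the limit, at 1.00 to 1.03, when DU145-pc3.1 replicate 1, DU145-Esrrb replicate 2, DY131-treated DU145-pc3.1 replicate 2 or either DY131-treated DU145-Esrrb column was left out. The correction for the junction share left both values in place, at 1.22 for COL4A1 and 0.994 for COL4A2. This comparison rests on the treated libraries that stood furthest apart, and without either of them COL4A1 stayed called, with a value from 1.17 to 1.28 over all single libraries left out.

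COL4A3 and COL4A4 did not follow the first pair. COL4A3 was at 3.63 and 3.26 cpm without and at 2.06 and 1.98 cpm with DY131 (log2 fold change of -0.76 ± 0.267, SE, edgeR adjusted p = 0.0344), which is lower in both treated libraries but was not called. COL4A4 was at 13.6 and 11.7 against 8.79 and 11.4 cpm (-0.33 ± 0.161, SE, edgeR adjusted p = 0.120).

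COL4A5 and PXDN share the untreated libraries of this comparison with the one behind their choice, so their values are given without a test. COL4A5 was at 0.954 and 0.616 cpm in untreated and at 3.83 and 2.48 cpm in DY131-treated DU145-pc3.1 cells, a log2 fold change of 2.01 ± 0.408 (SE). PXDN was at 40.8 and 35.0 against 25.4 and 28.3 cpm, a log2 fold change of -0.50 ± 0.111 (SE). COL4A5 was thus higher with DY131 and PXDN lower.

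In DU145-Esrrb cells no chain of the first 2 pairs was called with DY131 (0 of 4 by edgeR's quasi-likelihood test, by its exact test and by DESeq2), where 12.0% of all tested genes were called, with 9.04% called lower. At an adjusted or an unadjusted p under 0.05 alone, 3 of the 4 passed by either edgeR test and 2 by DESeq2, against 58.7% of all tested genes by adjusted p in the first test. COL4A1 went from 37.8 and 34.6 to 27.6 and 25.4 cpm (log2 fold change of -0.45 ± 0.0953, SE, edgeR adjusted p = 8.01e-04), and COL4A2 from 88.6 and 91.3 to 67.7 and 65.0 cpm (-0.44 ± 0.0665, SE, edgeR adjusted p = 4.04e-05). Both were lower in both treated libraries. After correction for the junction share they were at 0.06 (adjusted p = 0.608) and 0.02 (adjusted p = 0.784), so the direction did not hold. COL4A3 went from 2.46 and 3.03 to 1.43 and 1.47 cpm (-0.91 ± 0.315, SE, edgeR adjusted p = 0.0212, and -0.59 with an adjusted p of 0.129 after correction). Without DU145-Esrrb replicate 1 COL4A3 was called, at -1.06. COL4A4 was at 8.74 and 8.55 against 8.08 and 6.44 cpm (-0.26 ± 0.188, SE, edgeR adjusted p = 0.246, and -0.15 with an adjusted p of 0.537 after correction).

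COL4A5 and PXDN are again given without a test, because the untreated Esrrb libraries chose them. Nothing is read from the size or sign of their changes beside these chains, since the choice bears on both. COL4A5 was at 6.37 and 4.51 cpm in untreated and at 1.17 and 0.565 cpm in DY131-treated DU145-Esrrb cells, a log2 fold change of -2.67 ± 0.388 (SE), or -2.14 after correction. PXDN was at 5.01 and 5.98 against 16.7 and 14.0 cpm, a log2 fold change of 1.48 ± 0.168 (SE), and 1.47 after correction. Both had the opposite sign in DU145-pc3.1 cells. With DY131, COL4A5 of the Esrrb pool lay to either side of the 2 untreated control libraries, while PXDN stayed under every library of the control pool.

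The interaction of DY131 with Esrrb, the response in DU145-Esrrb minus that in DU145-pc3.1 cells, was called for COL4A1 and COL4A2, 2 of the 4 chains tested, where 6.28% of all tested genes were called and 4.74% were called lower. It was -1.67 ± 0.128 (SE, edgeR adjusted p = 1.98e-07) for COL4A1 and -1.44 ± 0.0907 (SE, edgeR adjusted p = 2.04e-08) for COL4A2. Corrected for the junction share the values were -1.16 (adjusted p = 1.17e-05) and -0.97 (adjusted p = 2.24e-06), so COL4A1 kept its call and COL4A2 was just under the limit. For COL4A3 it was -0.15 ± 0.418 (SE, edgeR adjusted p = 0.822) and for COL4A4 0.07 ± 0.249 (SE, edgeR adjusted p = 0.858), and after correction both were at 0.19 (edgeR adjusted p = 0.802 and 0.625). For COL4A5 and PXDN the same difference was -4.68 ± 0.566 and 1.98 ± 0.201 (SE), without a test.

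The pairs can also be described by their ratios per kilobase. COL4A1 was at 0.343 and 0.365 of COL4A2 in DU145-pc3.1, 0.418 and 0.372 in DU145-Esrrb, 0.423 and 0.405 in DY131-treated DU145-pc3.1, and 0.401 and 0.384 in DY131-treated DU145-Esrrb cells. The ratio thus stayed between 0.343 and 0.423 while the levels differed more widely, and it was lowest in both untreated control libraries. COL4A3 was at 0.329 and 0.344 of COL4A4 in DU145-pc3.1, 0.348 and 0.439 in DU145-Esrrb, 0.290 and 0.215 in DY131-treated DU145-pc3.1, and 0.220 and 0.282 in DY131-treated DU145-Esrrb cells. All 4 treated libraries were under all 4 untreated ones. These ratios are not corrected for the junction share, which was 30.1% in COL4A3 and 22.2% in COL4A4. COL4A3 had only 11 to 22 counts in the treated libraries, so the separation is given as a description. COL4A5 and COL4A6 gave no ratio, since COL4A6 was under the floor.

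The summed level of the 6 chains was 17.9 ± 0.277 RPKM (SD, n = 2) in DU145-pc3.1, 21.4 ± 0.205 in DU145-Esrrb, 35.2 ± 1.30 in DY131-treated DU145-pc3.1 and 15.3 ± 0.706 in DY131-treated DU145-Esrrb cells. COL4A2 made up 64.8% to 67.2% of it and COL4A1 23.5% to 27.8%, as means of the groups. COL4A5 had a share of 0.682% ± 0.198 (SD, n = 2) in DU145-pc3.1, 3.95% ± 0.919 in DU145-Esrrb, 1.39% ± 0.372 in DY131-treated DU145-pc3.1 and 0.877% ± 0.398 in DY131-treated DU145-Esrrb cells. COL4A4 was at 7.08% ± 0.655 in DU145-pc3.1 and COL4A3 at 2.38% ± 0.143 (SD, n = 2), and in DY131-treated DU145-pc3.1 cells they were at 2.88% ± 0.633 and 0.710% ± 0.00832. These sums and shares are not corrected for the junction share. With DY131 in DU145-Esrrb cells the corrected log2 fold changes were 0.06 for COL4A1 and 0.02 for COL4A2. The lower sum in DY131-treated than in untreated DU145-Esrrb cells is therefore not read as a fall in collagen IV. In bulk RNA, fewer cells that use a gene and less RNA per cell cannot be told apart.

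**Figure D4:**
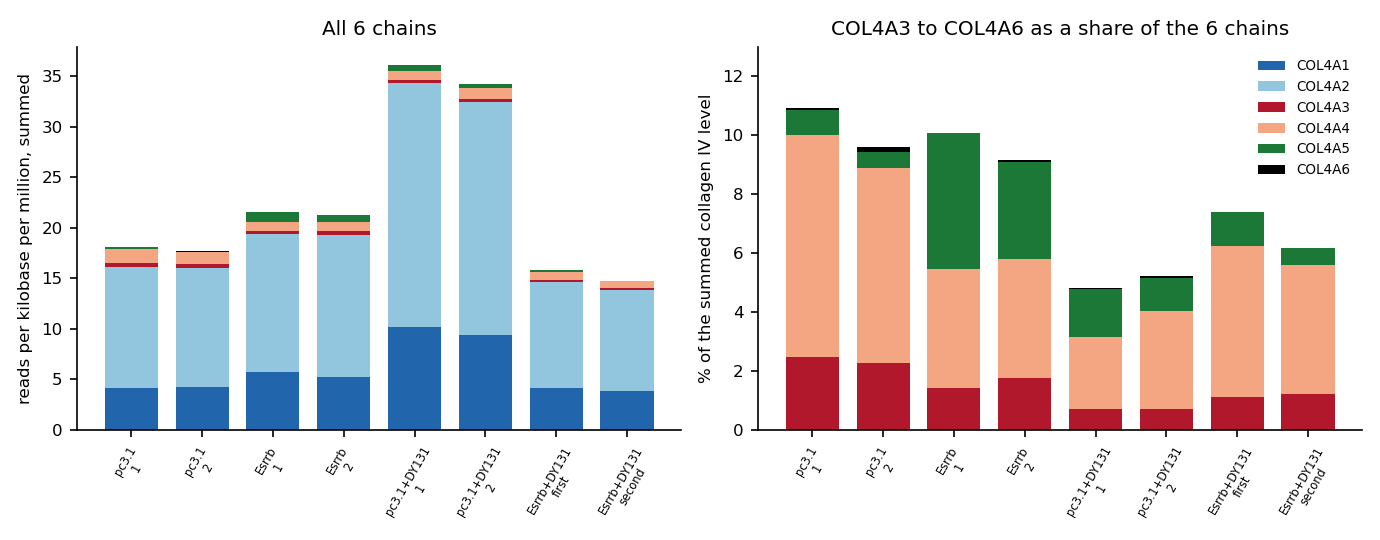
Left, level of the 6 chains stacked in each library (RPKM). Right, COL4A3 to COL4A6 as a percentage of the 6 chains. The summed level is highest in both libraries of DU145-pc3.1 cells with DY131, and COL4A5 takes its largest share, 3.95% on average, in untreated DU145-Esrrb cells.

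Over the 8 libraries, which share the 4 groups, the log2 cpm of COL4A1 and COL4A2 went together with a Pearson r of 0.987. For COL4A3 and COL4A4 it was 0.730, and for COL4A5 and PXDN -0.622. Nothing is read from this last value, because COL4A5 and PXDN were chosen for opposite differences in the untreated libraries, which are among the 8. The 3 tested genes with the pattern most like that of COL4A1 were ABCC2 (0.991), COL4A2 (0.987) and DOCK9 (0.985), and for COL4A2 they were COL4A1 (0.987), MYO1E (0.986) and POLR2B (0.981). Of all 13856 tested genes, 19 had an r over 0.95 with COL4A1 and 45 with COL4A2. For COL4A3 they were PRSS22 (0.999), RAB11FIP4 (0.987) and TRUB2 (0.985), and for COL4A4 SOD2 (0.975), IFITM3 (0.964) and C19orf63 (0.960). For COL4A5 they were LOC100127888 (0.970), ROBO1 (0.967) and LOC100507218 (0.951), and for PXDN SDC3 (0.987), CXorf57 (0.969) and CCNJL (0.967). These values describe likeness over 8 libraries and nothing more.

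Genes that make, export, hold or cut collagen IV were looked at by list. In untreated cells none of the 51 tested genes of the 7 lists reached a log2 fold change of 1 in size between the pools. Of the 16 genes for chain modification and folding, all of them tested, 0 were called higher and 2 lower with Esrrb in DY131-treated cells, where 8.21% of all tested genes were called and 6.06% were called lower. At an adjusted p under 0.05 alone 10 were lower and 3 higher, against 50.4% of all tested genes in either direction. Their median log2 fold change was -0.39, against 0.01 over all tested genes. After correction for the junction share 1 of the 16 was called, and 8 were lower and 1 higher by adjusted p alone. The shares of all tested genes in the corrected fit are not given, so nothing is read from these corrected counts. The corrected median was -0.17, against -0.00157 over all tested genes. FKBP10, a prolyl isomerase of the endoplasmic reticulum that acts on collagens, was at 36.5 and 37.7 cpm in DY131-treated DU145-pc3.1 and at 9.78 and 13.7 cpm in DY131-treated DU145-Esrrb cells (log2 fold change of -1.65 ± 0.131, SE, edgeR adjusted p = 1.02e-07). It was as low after correction for the junction share (-1.63). P4HA3, a catalytic subunit of prolyl 4-hydroxylase, was at 5.05 and 4.46 against 2.09 and 2.03 cpm (-1.20 ± 0.255, SE, edgeR adjusted p = 0.00105), and came to -0.96 after correction. With DY131 in DU145-Esrrb cells FKBP10 was the 1 called of the 16, lower at -1.61 ± 0.131 (SE, edgeR adjusted p = 7.63e-08). Of all tested genes 12.0% were called there and 9.04% were called lower. The interaction was called for FKBP10 at -2.09 and for P4HA3 at -1.41, where 6.28% of all tested genes were called and 4.74% were called lower. After correction these 3 values were at -1.59, -2.08 and -1.17, and all 3 calls held. In DU145-pc3.1 cells with DY131 0 of the 16 were called by edgeR's quasi-likelihood test, its exact test or DESeq2. The first test called 4.19% of all tested genes there. Of the 16, 10 passed the first test at an unadjusted p under 0.05. At an adjusted p under 0.05 alone 5 were higher and 3 lower, against 37.4% of all tested genes in either direction.

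Of the 6 genes for export from the endoplasmic reticulum, 1 was called, lower with DY131 in DU145-Esrrb cells, where 12.0% of all tested genes were called and 9.04% were called lower. CTAGE5, a partner of MIA3 in loading collagen into carriers, was at 45.9 and 43.9 cpm in DU145-Esrrb cells and at 15.5 and 20.1 cpm with DY131 (log2 fold change of -1.32 ± 0.111, SE, edgeR adjusted p = 1.02e-07), and at -0.83 after correction for the junction share, under the limit.

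Of the crosslinking enzymes other than PXDN 6 of 7 were tested, and in DU145-Esrrb cells with DY131 1 was called higher and 2 lower, against 12.0% of all tested genes called, 2.98% higher and 9.04% lower. LOX, a lysyl oxidase, was at 22.4 and 22.5 cpm without and at 60.0 and 65.7 cpm with DY131 (log2 fold change of 1.48 ± 0.0888, SE, edgeR adjusted p = 3.07e-09). LOXL2, a lysyl oxidase that crosslinks collagen IV, went the other way, from 363 and 356 to 165 and 178 cpm (-1.07 ± 0.0617, SE, edgeR adjusted p = 2.19e-09). LOXL4 had 6.20 and 5.15 against 2.61 and 1.02 cpm (-1.68 ± 0.373, SE, edgeR adjusted p = 0.00116). These 3 calls held after the correction, at 1.26, -1.03 and -1.64. The interaction was called for LOX alone among the 6, at 1.13, against 6.28% of all tested genes, and came to 0.90 after correction. With Esrrb in DY131-treated cells LOXL4 was the 1 called of the 6 (against 8.21% of all tested genes), at -1.03 (edgeR adjusted p = 0.0469), and not after correction (adjusted p = 0.0726). In DU145-pc3.1 cells DY131 gave 0 calls among the 6 by all 3 tests, where the first called 4.19% of all tested genes. Of the 6, 2 passed the first test at an unadjusted p under 0.05.

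Of the 11 basement membrane partners 9 were tested, and all 9 were lower with DY131 in DU145-Esrrb cells at an adjusted p under 0.05 alone, where 58.7% of all tested genes passed in either direction. Their median log2 fold change was -0.53, against -0.00449 over all tested genes. After correction for the junction share 8 of the 9 were lower by adjusted p alone. The share of all tested genes lower by adjusted p is not given for either fit, so nothing is read from these counts. Corrected, COL18A1, the collagen XVIII chain, was at -0.15 (edgeR adjusted p = 0.0478) and LAMB1, the laminin β1 chain, at 0.01 (edgeR adjusted p = 0.912). The corrected median of the 9 was -0.40, against -0.02 over all tested genes. LAMA5, the laminin α5 chain, was the 1 called, where 12.0% of all tested genes were called, from 305 and 281 cpm to 106 and 107 cpm (-1.46 ± 0.135, SE, edgeR adjusted p = 2.94e-07), and at -1.02 after correction. AGRN, agrin, was the 1 of the 9 called with Esrrb in DY131-treated cells (against 8.21% of all tested genes), lower at 756 and 685 against 306 and 308 cpm (-1.23 ± 0.0656, SE, edgeR adjusted p = 1.09e-09), and stayed called at -1.07 after correction. The interaction was called for AGRN (-1.11), HSPG2, which encodes perlecan (-1.26), and LAMA5 (-1.11), 3 of 9 against 6.28% of all tested genes (4.74% lower), and was under the limit for each after correction, at -0.95, -0.84 and -0.66. With DY131 in DU145-pc3.1 cells 0 of the 9 were called by all 3 tests, where the first called 4.19% of all tested genes. Of the 9, 5 passed the first test at an unadjusted p under 0.05.

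The 6 receptors were all tested, and ITGA2 rose with DY131 in either pool. ITGA2, the α2 subunit of a collagen-binding integrin, was at 49.4 and 46.0 cpm in DU145-pc3.1 and at 175 and 146 cpm with DY131 (log2 fold change of 1.75 ± 0.0825, SE, edgeR adjusted p = 2.52e-09), and went from 44.4 and 44.0 to 115 and 112 cpm in DU145-Esrrb cells (1.37 ± 0.0858, SE, edgeR adjusted p = 5.31e-09). Both treated libraries were the higher ones in each pool, and after correction the value in DU145-Esrrb cells was 1.40 (adjusted p = 5.41e-09). Its interaction of -0.39 (adjusted p = 0.0213), or -0.35 (adjusted p = 0.0474) after correction, was not called. DDR2, a collagen receptor kinase, was at 0.176 to 0.460 cpm (2 to 5 counts) without and 0.782 to 1.47 cpm (6 to 14 counts) with DY131, and passed the filter only through treated libraries. DDR2 passed both thresholds in both pools, but nothing is read from this. DESeq2 called 1 receptor rather than 2 in each pool, and DDR2 in DU145-Esrrb cells came to 1.34 (edgeR adjusted p = 0.0660) after correction. The 2 of 6 receptors called by edgeR's quasi-likelihood test were ITGA2 and DDR2. DDR2 is left aside, so only ITGA2, called higher in each pool, is set beside the shares that follow. Of all tested genes, 4.19% were called in DU145-pc3.1 (1.02% higher) and 12.0% in DU145-Esrrb cells (2.98% higher). Of the 4 proteases only MMP14 passed the filter, and its log2 fold changes in the tested comparisons ran from 0.40 to 0.85, and from 0.31 to 0.76 after correction, under the limit. Of the 13 other collagens 7 were tested, and COL17A1, a transmembrane collagen of hemidesmosomes, was the 1 called (against 2.98% of all tested genes called higher), from 9.59 and 10.0 to 21.0 and 18.8 cpm in DU145-Esrrb cells with DY131 (1.02 ± 0.129, SE, edgeR adjusted p = 7.11e-06). Corrected for the junction share it was at 1.74 (edgeR adjusted p = 3.52e-08), and its interaction, not called at 0.67 (edgeR adjusted p = 0.00890), was at 1.38 (edgeR adjusted p = 5.17e-05), past both thresholds.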

How the data were processed

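RNA of DU145 pools was sequenced in 8 libraries (TruSeq stranded mRNA, single reads of 50 bases). The authors used the FASTX-Toolkit for trimming, TopHat2 for mapping to hg18 and their program MULTICOM-MAP for counting reads per gene. These deposited counts are raw and whole. How strand and reads that map to several genes were treated is not given in the sources used here. Every column of per-sample values was used.

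Genes entered the tests from 1 cpm in 2 libraries upward. All 8 libraries entered 1 model of the 4 groups (R 4.3.3, edgeR 4.0.16, TMM, quasi-likelihood F test, Benjamini-Hochberg adjustment over 13856 genes), with calls where the adjusted p was under 0.05 and the log2 fold change 1 or more in size. The SE is the log2 fold change divided by the root of F. DESeq2 1.42.0 and edgeR's exact test served as alternatives, and tables and plots used Python 3.11.15, numpy 2.4.6, pandas 2.3.3 and matplotlib 3.10.9. The steps were tested on simulated counts. The genes and the lists were chosen with earlier results of these data known. The text names all 7 genes in every library, ESRRB, up to 4 called genes per list and comparison, and the 3 tested genes most alike in log2(cpm + 0.25).

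Transcript lengths and junction shares (50-base windows) came from GENCODE 29 on GRCh38, where RefSeq identifiers matched 22019 genes, current symbols 722 more and older ones 235. The correction for this share entered the fit as offsets per library. With the library totals of 7858743 to 11551690 counts, 3 counts are 0.260 to 0.382 cpm. Intervals and floors cover counting error only.

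Replicate numbers come from the sample titles and mark separate samples, and for 2 columns they are unknown. The study calls them biological replicates. Its methods say that replicates of each transfection were pooled, and not how the pools map to the libraries, so p-values measure the spread between these samples, which may be technical. Deviations of libraries with the same number correlated at 0.0917, 0.0229 and -0.0685, so the numbers were not taken as pairs. Alternatives changed the test, the scaling, the filter, the libraries in the fit, the fold change threshold and the junction share, and left out each library in turn.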

Additional observations from a re-analysis of the deposited data

Results flagged for a closer look

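The response to DY131 differed between the pools for COL4A1, by -1.67 on the log2 scale (DU145-Esrrb minus DU145-pc3.1), and for COL4A2, by -1.44, as tested by the interaction term of edgeR's quasi-likelihood fit (adjusted p = 1.98e-07 and 2.04e-08). Corrected for the junction share they were at -1.16 and -0.97. COL4A5 was higher with DY131 in DU145-pc3.1 cells (log2 fold change of 2.01) and lower in DU145-Esrrb cells (-2.67). PXDN was lower with DY131 in DU145-pc3.1 (-0.50) and higher in DU145-Esrrb cells (1.48). For COL4A5 and PXDN the difference between the pools was not tested, because the untreated libraries chose these genes. No group had enough libraries to look for a single library far from the others.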

How the results depend on the processing

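Between the untreated pools 2 members reached a log2 fold change of 1 in size, and 1 when at least 10 counts were required in every library, since COL4A5 then left the table. With Esrrb in DY131-treated cells 3 members were called, 1 after the correction for the junction share (COL4A5) and 5 without a fold change threshold, with 3 whichever library was left out. With DY131 in DU145-pc3.1 cells 1 chain was called, and 2 with DESeq2, with DESeq2's size factors, with only the libraries of the comparison, or in the 6 numbered libraries without a block, since COL4A2 lay at the limit, and 3 without a fold change threshold. The replicate block in the 6 numbered libraries also gave 2, with COL4A2 at 1.00, and left 2 members past the limit between the untreated pools. Leaving out single libraries gave 1 to 2. With DY131 in DU145-Esrrb cells 0 chains were called, 3 without a fold change threshold, and 0 to 1 when a library was left out. The interaction was called for 2 chains and for 1 after the junction correction. The junction correction turned the sign of COL4A1 (0.0617) and COL4A2 (0.0236) with DY131 in DU145-Esrrb cells and of the uncalled interaction of COL4A3 (0.19). The uncalled interaction of COL4A4 ran from -0.13 to 0.26 when a library was left out. Adjusted p alone was not run for the untreated pools, which were given no test. COL4A5 and COL4A3 rest on few counts (5 to 75 and 11 to 38), and with 1 library left a group is assumed to vary like the others.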
